A study of Mus musculus with 16 samples.

Results

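The genes of MHC class I antigen presentation were followed in 16 mouse osteosarcomas. The 10 genes were chosen by name, as the core of the pathway: the heavy chains *H2-K1* and *H2-D1*, their light chain *B2m*, the peptide transporter *Tap1* and *Tap2*, the loading factor *Tapbp*, the transactivator *Nlrc5* and the immunoproteasome subunits *Psmb8*, *Psmb9* and *Psmb10*. All 10 were present among the 25054 genes of the table. The tumors arose in mice of the genotype OsxCreERT2+/-;p53fl/fl;Rb1fl/fl, in which a tamoxifen-dependent Cre under the Osterix promoter acts in cells of the osteoblast lineage and deletes both tumor suppressors. This background was shared by both groups. The 8 tumors labeled KO, from 8 mice, also carried Arid1afl/fl, and the 8 tumors labeled WT did not. Every mouse had been given tamoxifen at 400 µg/g at 1 month of age, and tumors were taken at more than 6 months from males and females. The WT tumors came from only 4 mice. N42 gave 4 of them (R pelvis, R femur, L limb and L shoulder), N43 gave 2 (spine and pelvis), and N215 (R hind limb) and N25 (lung) gave 1 each. Body sites are not labeled for the KO tumors.

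MHC class I molecules display peptides from inside the cell to CD8+ T cells. Proteins are cut by the proteasome, whose 3 catalytic subunits can be replaced by the inducible *Psmb8*, *Psmb9* and *Psmb10*, and the peptides are pumped into the endoplasmic reticulum by the *Tap1* and *Tap2* heterodimer. There *Tapbp* (tapasin) holds the heavy chain with its light chain, beta-2-microglobulin, next to the transporter until a peptide is bound. The genes are induced together by interferon, and *Nlrc5* acts on a shared promoter module without binding DNA itself. Loss of class I expression is a known route by which tumors avoid T cells.

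The total per tumor was 1109487 to 15059640 counts in KO (median 5367670) and 7806160 to 16962329 in WT (median 14828153), so 3 counts of a gene corresponded to 0.203 to 6.69 CPM in KO and to 0.146 to 0.340 CPM in WT. CPM are counts scaled to a common library size, which was normalized by TMM, the trimmed mean of M values. The targeted gene did not separate the labels: *Arid1a* ranged from 107 to 270 CPM in KO and from 125 to 236 CPM in WT (log2 fold change 0.16, SE 0.22, adjusted p = 0.715 in edgeR's quasi-likelihood test). Counts over a whole gene do not show the loss of single exons, so KO and WT are used as labels throughout. Several libraries carried markers of other tissues. The summed CPM of 9 skeletal muscle genes was 216125 in Montana and 257354 in Oregon against at most 28249 in WT. The sum of 8 lung genes was 12011 in Massa and 28791 in N25 lung, that of 8 salivary gland genes was 25342 in Prince, and Zelda had the highest sums of B cell genes (719), erythroid genes (1444), liver genes (1744 against at most 283 in WT) and neutrophil genes (419 against at most 203 in WT). No pair of tumors of a group agreed within sampling noise, the smallest chi-square per degree of freedom being 40.1. The shallowest were Massa and Grilka. Tumors of 1 mouse are not independent animals, so tests over the WT tumors measure in part the spread within N42 and N43.

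Of the 10 genes, 7 lie on chromosome 17, in or near the mouse MHC (GRCm38, GENCODE vM21), within 1351600 bases. *B2m* is on chromosome 2 (chr2:122147686-122153083), and *Nlrc5* (chr8:94434356-94527272) and *Psmb10* (chr8:105935735-105938444) are on chromosome 8. *H2-K1* (chr17:33996017-34000347) is read from the minus strand, and *H2-D1* (chr17:35262730-35267499) from the plus strand. *Tap1* (chr17:34187553-34197225) and *Psmb9* (chr17:34181987-34187764) are head to head, and in RefSeq their starts are 226 bases apart. Upstream sequences of 8 of the 10 genes, all but *Nlrc5* and *Tap2*, were matched in RefSeq (GRCm38.p6). They are upstream of the RefSeq start, which can differ from the GENCODE one. The sequences of *H2-D1*, *Tapbp* and *Psmb9* lie inside the GENCODE bounds of these genes. The stretches printed here show where motifs of the class I promoter lie. Those of *H2-D1* and *Tap1* are only 30 bases long, so other matches of these genes fall outside the letters shown: TGACG at -101 and CCAAT at -76 and -53 from the start of *H2-D1*, and CCAAT at -222 from the start of *Tap1*. Capitals mark matches, on either strand, to 4 short motifs: GGGGATTCC (kappaB-like), GAAANNGAA or GAANNGAAA (a site like the interferon-stimulated response element), TGACG (a cyclic AMP response element half-site) and CCAAT.
H2-K1, chr17:34000348-34000512, minus strand: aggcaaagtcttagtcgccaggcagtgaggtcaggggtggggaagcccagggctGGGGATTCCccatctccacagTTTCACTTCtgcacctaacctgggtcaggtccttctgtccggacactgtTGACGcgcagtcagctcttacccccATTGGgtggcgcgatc
H2-D1, chr17:35262923-35262952, plus strand: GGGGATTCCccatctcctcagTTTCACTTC
B2m, chr2:122147537-122147657, plus strand: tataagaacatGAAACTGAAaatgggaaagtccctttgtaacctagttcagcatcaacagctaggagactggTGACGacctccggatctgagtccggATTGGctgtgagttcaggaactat
Tap1, chr17:34187458-34187487, plus strand: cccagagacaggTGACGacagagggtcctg

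In the 250 bases before the start, the kappaB-like letters were present only in *H2-K1* and *H2-D1* among the 8 genes, against 0.213% of 32817 promoter windows. The interferon-type letters were found in *H2-K1*, *H2-D1* and *B2m* (12.5% of all windows), TGACG in 5 of the 8 genes (17.7%) and CCAAT in 6 of the 8 (33.8%). The windows of *H2-K1* and *H2-D1* share an identical run of 47 bases, which starts 141 bases before the *H2-K1* start and 201 bases before the *H2-D1* start. TGACG in the *Tap1* stretch lies between the *Tap1* and *Psmb9* starts and so falls in the windows of both genes. Likewise, CCAAT at -222 from the *Tap1* start and at -8 from the *Psmb9* start is the same site. The counts of genes above include both genes for each. A match is a description of the letters and not evidence of binding.

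The question of the design was whether tumors with floxed *Arid1a* differ from those without. *B2m* was the 1 member called: it was lower in KO, by 1.83 on the log2 scale. The heavy chain *H2-D1* and the loading factor *Tapbp* had lower means in KO without passing the threshold, and *Nlrc5* and *Psmb10* had higher ones. With edgeR and a threshold of 0.05 after Benjamini-Hochberg adjustment over all 15413 genes tested, 1 of the 10 members was called lower, where 2.15% of all genes were called lower. In all, 7 members had a log2 fold change below 0 and 3 above, with a median of -0.38, while the median of all genes was 0.10 and 44.1% of them were below 0. At an unadjusted p under 0.05 there were 4 members (*B2m*, *H2-D1*, *Tapbp* and *Psmb10*), against 23% of all genes. In none of the 10 did KO and WT tumors separate without overlap, which 0.208% of all genes did in the lower direction.

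**Figure D1:**
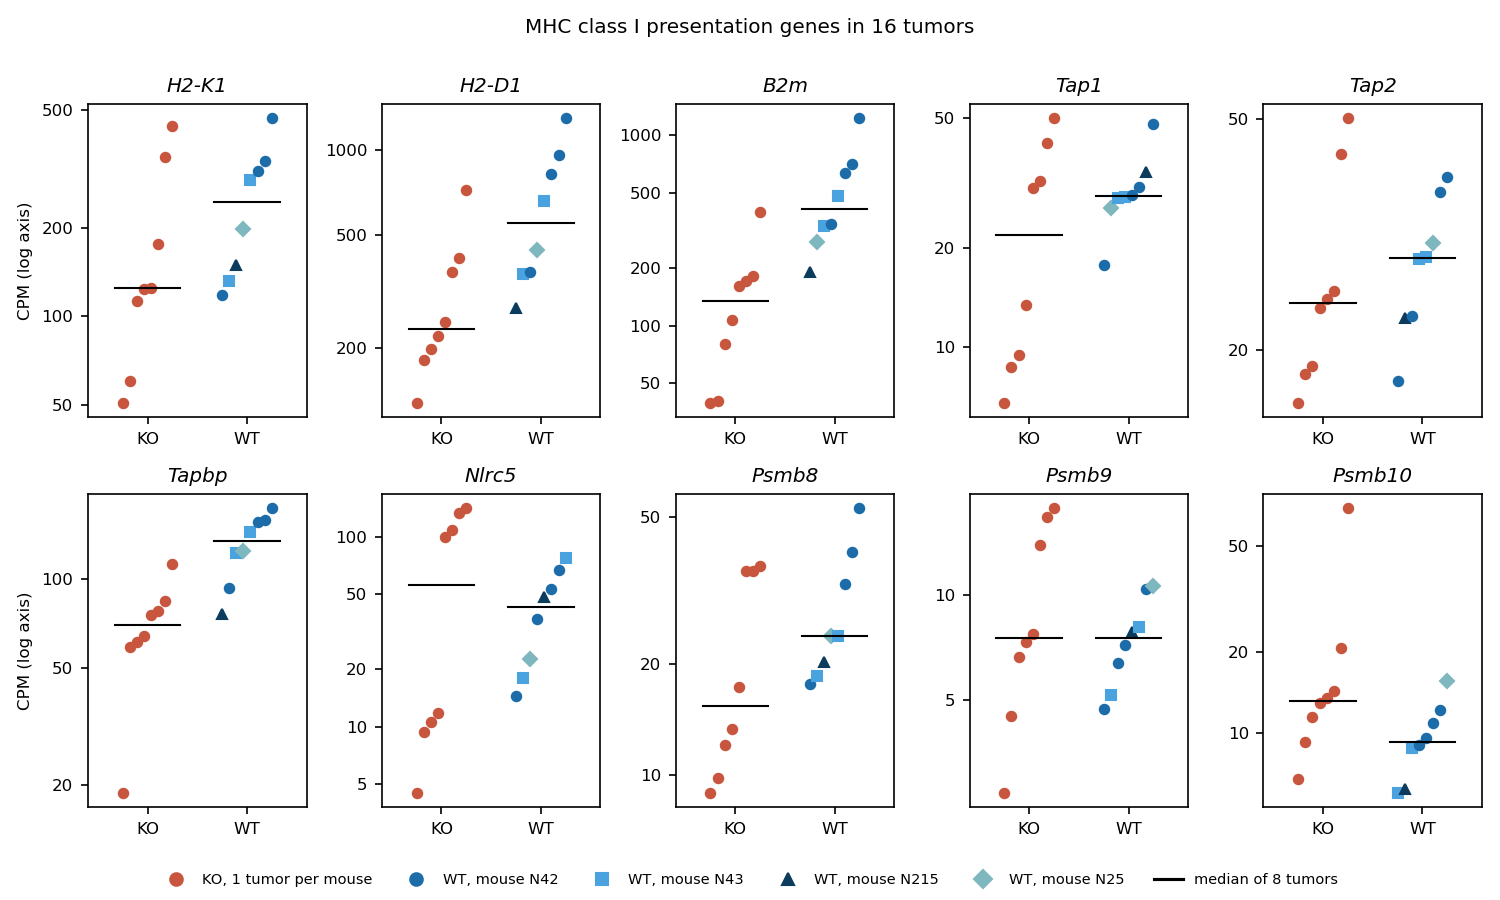
CPM (log axis) of each of the 10 genes in the 8 KO tumors (red circles, 1 per mouse) and the 8 WT tumors (blue symbols, 1 shape per mouse), with the median of each group as a line. *B2m* of 7 KO tumors lies below every WT tumor, and the *Nlrc5* values of KO lie above or below the WT range but not within it.

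*B2m* encodes the light chain that every class I heavy chain needs to reach the surface. In KO it ranged from 39.2 CPM (Oregon) through a median of 134 to 394 CPM (Zelda), and in WT from 192 CPM (N215 R hind limb) through a median of 411 to 1228 CPM (N42 L shoulder). Of the 8 KO tumors 7 were thus below the lowest WT tumor, and Zelda alone lay inside the WT range. The means were 147 ± 115 CPM in KO and 524 ± 335 CPM in WT (SD, n = 8 each), and the log2 fold change was -1.83 (SE 0.49, adjusted p = 0.0444 in edgeR). The 4 tumors of mouse N42 include the 3 highest WT values. When the counts were summed per mouse (8 KO and 4 WT mice), the log2 fold change was -1.37 (SE 0.58, unadjusted p = 0.0342 and adjusted p = 0.602 in edgeR). In that fit 0 of the 10 members and 0.0625% of all genes were called in either direction. *B2m* was the 1 member with an unadjusted p under 0.05 there. The share of all genes with such a p was not counted in that fit, so this count has no background beside it. Without the tumors of N42 the log2 fold change was -1.08 (adjusted p = 0.660), so the call did not hold once mouse N42 was left out. Oregon and Montana, the tumors with the high muscle gene sums, had the lowest *B2m*, 39.2 and 40.0 CPM. Without them, a choice made after seeing the data, the log2 fold change was -1.54 (adjusted p = 0.0833 in edgeR). The part of muscle in these values was not tested. DESeq2 called *B2m* at an adjusted p of 0.00659, and limma-voom, in which the mouse was a random effect, did not (adjusted p = 0.462).

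The 2 heavy chains differed in size of effect. *H2-D1*, a classical class Ia heavy chain, ranged from 128 through a median of 234 to 719 CPM in KO and from 277 through 551 to 1294 CPM in WT, and 5 KO tumors were below all WT tumors. Its log2 fold change was -1.06 (SE 0.40, adjusted p = 0.129 in edgeR). *H2-K1*, the other classical heavy chain, ranged from 50.9 through 125 to 440 CPM in KO and from 118 through 243 to 469 CPM in WT. For *H2-K1* the groups overlapped widely, with 3 KO tumors below the WT range, and the log2 fold change was -0.48 (SE 0.44, adjusted p = 0.552 in edgeR). The highest KO tumor was Prince in both genes, and the lowest was Grilka for *H2-D1* and Oregon for *H2-K1*. Of the 50-base stretches of their transcripts, 9.63% in *H2-K1* and 12.8% in *H2-D1* also occur in other genes, among them *H2-Q7* and *H2-Q10* for *H2-K1*, so some of their 50-base reads cannot be assigned to 1 gene. *B2m* has no such stretch. The H2 haplotype of the mice is not given in the sources used here, and reads of another haplotype may map differently to the reference, which bears on the values of all H2 genes and on the ratio of *H2-K1* to *H2-D1*.

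Within a tumor, the count of *H2-K1* was a fraction of that of *H2-D1*, and the log2 ratio of *H2-K1* to *H2-D1* was -0.95 ± 0.63 in KO and -1.34 ± 0.24 in WT (SD, n = 8 each). Of the 8 KO tumors 5 had a higher ratio than any WT tumor and 2 a lower one than any WT tumor. The difference of 0.40 was not past the threshold in a two-sided exact permutation test (p = 0.116, adjusted over 4 ratios 0.243). Over the mouse sums it was 0.26 (exact permutation p = 0.453, adjusted 0.800). The number of *B2m* counts per heavy chain count (*H2-K1* and *H2-D1* together), a measure chosen after the values were seen, ran from 0.124 (Montana) to 0.551 (Zelda) in KO with a median of 0.292, and from 0.428 (N25 lung) to 0.697 (N42 L limb) in WT with a median of 0.568. Zelda, Massa and Grilka, the last at 0.429, were within the WT range, and the other 5 KO tumors were below it. Among these 5 were Montana and Oregon (0.169), the tumors with the high muscle gene sums. The part of muscle in this measure was not tested.

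**Figure D2:**
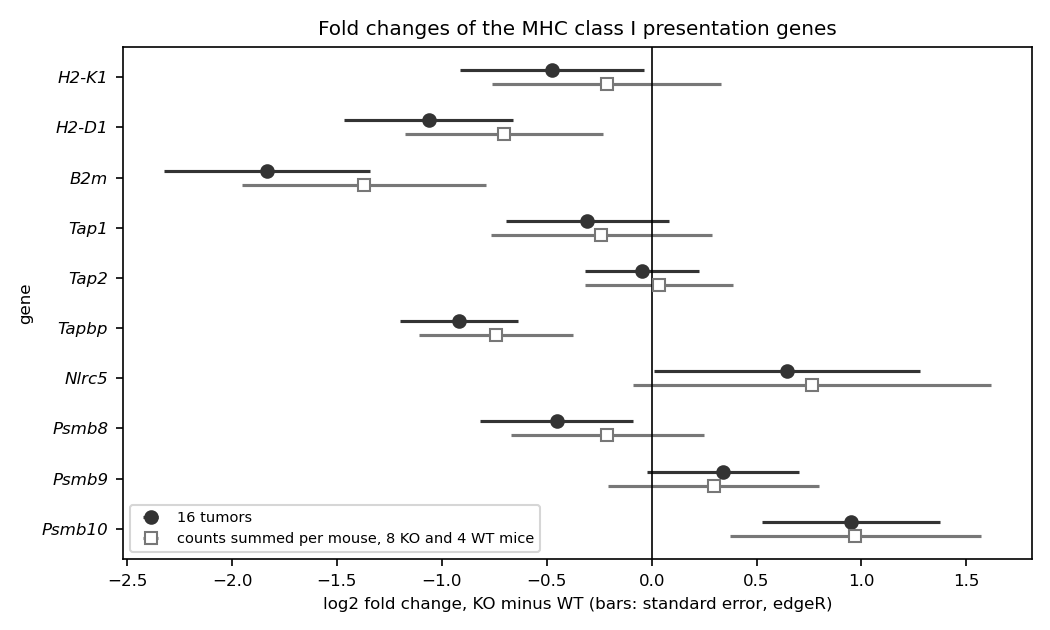
Log2 fold change of each gene, KO minus WT, over the 16 tumors (filled circles) and over counts summed per mouse (open squares). Bars are standard errors derived from the F statistic of edgeR. *B2m* has the lowest value in both fits, and 7 of the 10 genes are below 0 over the tumors.

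*Tapbp*, which bridges the empty heavy chain to the transporter, ranged from 18.8 CPM (Grilka) through a median of 70.1 to 112 CPM (Prince) in KO and from 76.1 CPM (N215 R hind limb) through a median of 134.5 to 174 CPM (N42 L shoulder) in WT. All 8 KO tumors were below the WT median and 5 were below every WT tumor. The log2 fold change was -0.92 (SE 0.28, unadjusted p = 0.00443, adjusted p = 0.0687 in edgeR). DESeq2 called it (adjusted p = 0.0156), and so called 2 of the 10 members lower, *B2m* and *Tapbp*, with 4.77% of all genes with an adjusted p called lower. limma-voom called 0 of the 10 and 0.0649% of all genes lower. There 1 of the 10 had an unadjusted p under 0.05, a share not counted over all genes. Per mouse the log2 fold change was -0.74 (adjusted p = 0.643 in edgeR). In the annotation, 20.3% of the 50-base stretches of *Tapbp* also occur in *Gm19412*, which overlaps it on the other strand.

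The transporter genes did not pass the threshold. *Tap1* ranged from 6.71 CPM (Grilka) through a median of 21.9 to 49.8 CPM (Zelda) in KO, and from 17.7 CPM (N42 L limb) through 28.8 to 47.9 CPM (N42 L shoulder) in WT. The KO values spread beyond the WT range on both sides, 4 below it and 1 above. The log2 fold change was -0.31 (SE 0.39, adjusted p = 0.681 in edgeR). *Tap2*, its partner, ranged from 16.2 through 24.1 to 50.1 CPM in KO and from 17.7 through 28.8 to 39.6 CPM in WT. The groups had almost the same mean, the log2 fold change being -0.04 (SE 0.27, adjusted p = 0.946 in edgeR). The lowest *Tap2* tumor in KO was Ohio, whose *Tap1* was above the WT median, at 30.4 CPM.

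*Nlrc5*, the class I transactivator, showed the widest range of the 10 genes. In KO it ranged from 4.46 CPM (Massa) through a median of 55.8 to 141 CPM (Ohio), and in WT from 14.5 CPM (N42 L limb) through 42.3 to 76.7 CPM (N43 pelvis). No KO tumor fell inside the WT range. Of the 8 KO tumors 4 were above it (Ohio, Medusa at 133, Zelda at 108 and Prince at 99.8 CPM) and 4 were below it (Montana at 11.7, Oregon at 10.6, Grilka at 9.40 CPM and Massa). The values of Massa and Grilka rest on 2 and 7 counts. The log2 fold change between the groups was 0.65 (SE 0.63, adjusted p = 0.579 in edgeR), and the SD of log2 CPM was 2.07 in KO and 0.89 in WT. The highest KO tumor was 31.6 times the lowest in KO and 5.27 times in WT. The 4 below the range were the 2 with high muscle gene sums and the 2 shallowest libraries, and the part of muscle and depth in these values was not tested.

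The immunoproteasome subunits divided in direction, and none passed the threshold. *Psmb8* (LMP7) ranged from 8.93 through a median of 15.4 to 36.7 CPM in KO and from 17.7 through 23.8 to 52.8 CPM in WT, and 5 KO tumors were below all WT tumors while the other 3 lay close together between 35.6 and 36.7 CPM. Its log2 fold change was -0.45 (SE 0.36, adjusted p = 0.485 in edgeR). *Psmb9* (LMP2) ranged from 2.69 through 7.53 to 17.8 CPM in KO and from 4.70 through 7.52 to 10.7 CPM in WT. The medians were nearly equal, and the log2 fold change was 0.34 (SE 0.36, adjusted p = 0.613 in edgeR). *Psmb10* (MECL-1) ranged from 6.71 through 13.2 to 69.1 CPM in KO and from 5.93 through 9.26 to 15.6 CPM in WT. Its highest value was in Massa, where it rests on a library with 1 count worth 2.23 CPM. The log2 fold change of *Psmb10* was 0.95 (SE 0.42, unadjusted p = 0.0382, adjusted p = 0.189 in edgeR), and without Massa it was 0.39.

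**Figure D3:**
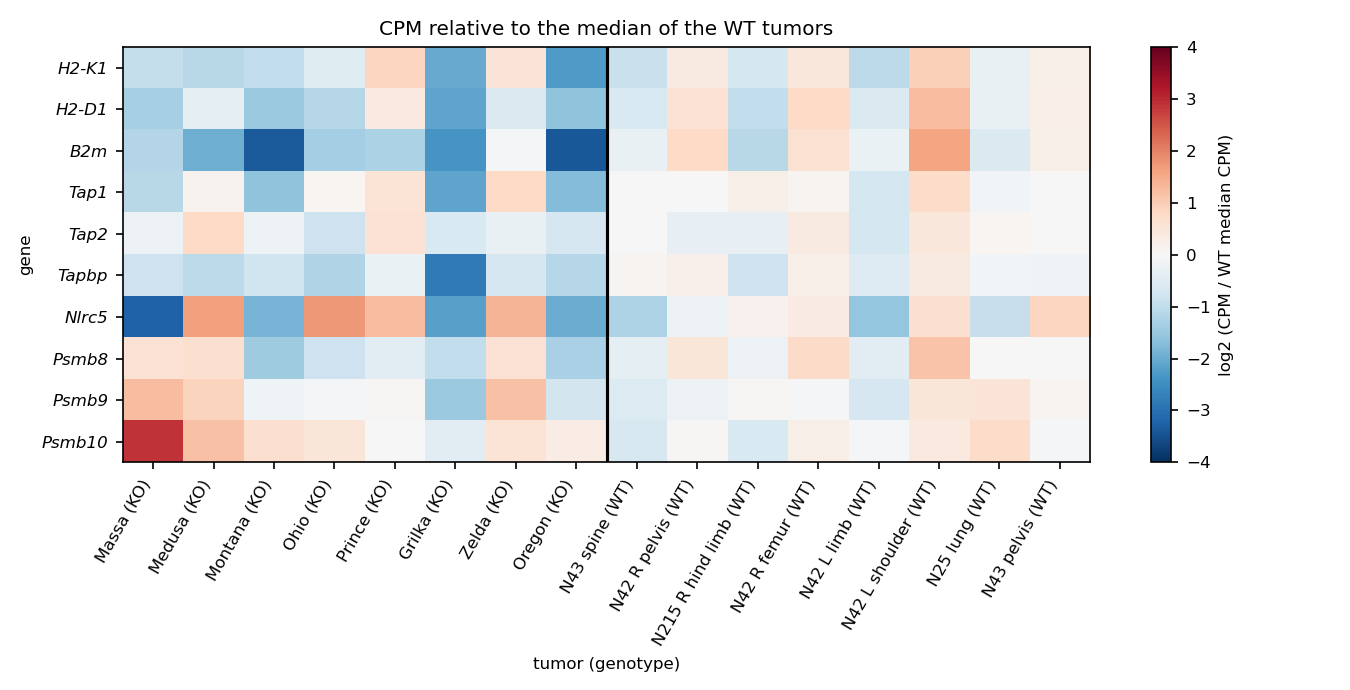
Log2 of the CPM of each gene (rows) in each tumor (columns) relative to the median of the WT tumors, KO on the left and WT on the right of the line. Grilka is below the WT median in all 10 genes and N42 L shoulder above it in all 10.

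Each inducible subunit takes the place of a constitutive one, *Psmb8* of *Psmb5*, *Psmb9* of *Psmb6* and *Psmb10* of *Psmb7*, so the ratio within a tumor does not depend on the scaling between libraries. None of the ratios passed the threshold between the groups. The log2 ratio of *Psmb8* to *Psmb5* was -0.21 ± 1.82 in KO and 0.18 ± 0.72 in WT (SD, n = 8 each, exact permutation p = 0.577, adjusted 0.770). It had the largest spread of the 4 ratios in KO, from -2.88 (Montana) to 1.88 (Medusa). The log2 ratio of *Psmb9* to *Psmb6* was -2.82 ± 1.39 in KO and -2.90 ± 0.58 in WT (exact permutation p = 0.890, adjusted 0.890). The log2 ratio of *Psmb10* to *Psmb7* was -1.70 ± 1.41 in KO and -2.55 ± 0.60 in WT (exact permutation p = 0.122, adjusted 0.243). Montana and Oregon had the lowest ratios of *Psmb8* to *Psmb5*, and of the constitutive subunits both had the highest levels, with *Psmb5* at 66.6 and 61.0 CPM against at most 36.9 CPM in WT. Both are the tumors with the high muscle gene sums, and the part of muscle in these ratios was not tested. Over the mouse sums the 3 subunit ratios had exact permutation p-values of 0.715, 0.800 and 0.412, each adjusted to 0.800.

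**Figure D4:**
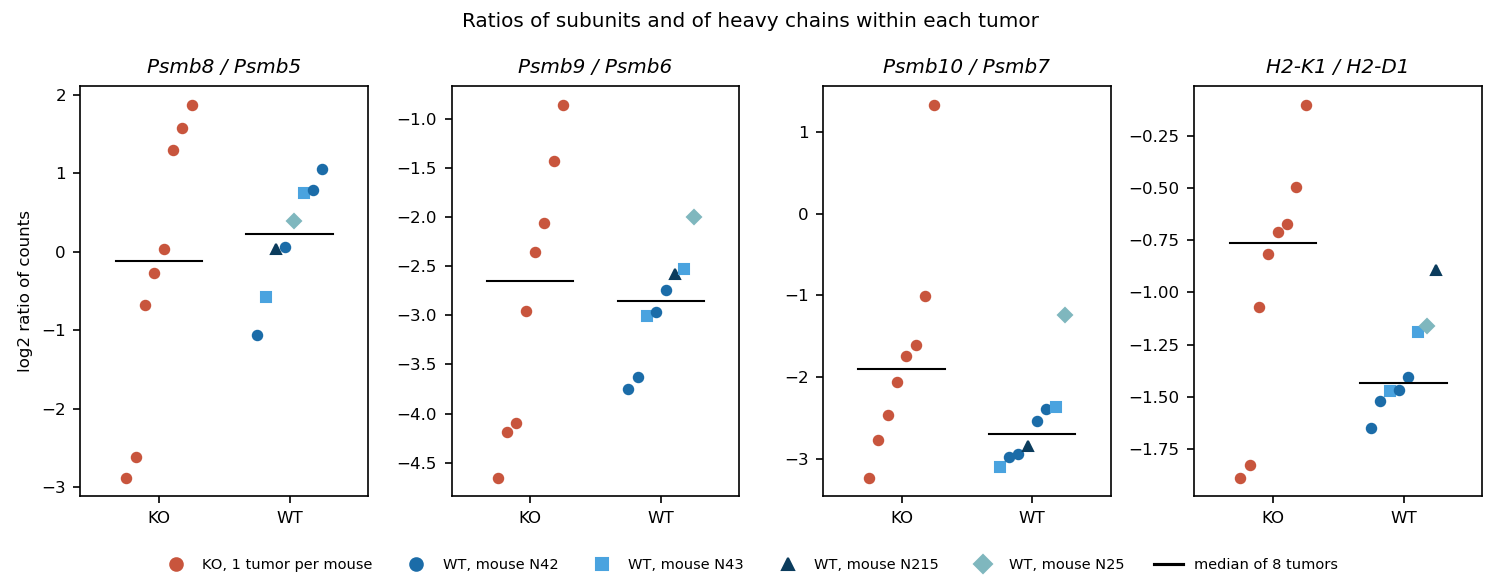
Log2 ratio of the counts of each inducible to each constitutive proteasome subunit, and of *H2-K1* to *H2-D1*, in each tumor, with symbols as in the plot of CPM by gene and lines at the median of 8 tumors. KO tumors spread beyond the WT tumors in both directions in each ratio.

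Per kilobase of exon, *B2m* was the most abundant member in both groups, at a mean of 609 CPM per kb in WT and 171 in KO. The length used was that of all annotated exons of a gene together, 860 bases for *B2m*, 3381 for *Psmb8* and 3660 for *Psmb9*. Levels between genes are thus compared only roughly, and their order depends in part on the annotation. In WT it was followed by *H2-D1* (252), *H2-K1* (85.1) and *Tapbp* (36.2), and this order held in each of the 8 WT tumors. The others were between 8.51 (*Psmb8*) and 2.07 (*Psmb9*), with *Tap2*, *Psmb10*, *Tap1* and *Nlrc5* between them in a mean order that some tumors reversed. In KO, *B2m* exceeded *H2-D1* (120) in only 4 of the 8 tumors, whereas *H2-D1* exceeded *H2-K1* (61.0) and *H2-K1* exceeded *Tapbp* (19.1) in all 8.

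Tumor by tumor, the KO tumors were not alike. Grilka had all 10 genes below the WT median and 8 below every WT tumor, and Oregon had 9 and 8. The values of Grilka rest on 2 (*Psmb9*) to 95 (*H2-D1*) counts, and Oregon had a muscle gene sum of 257354 CPM. The part of depth and muscle in these positions was not tested. Zelda, in contrast, had 6 genes above the WT median and none below the WT range. Zelda also had the highest *Ptprc* (CD45, a marker of leukocytes) at 845 CPM against at most 230 CPM in WT, and the largest summed T and NK cell list, 160 CPM against at most 46.0. Leukocytes express class I genes strongly, and the part of leukocytes in these values was not tested. In bulk tissue, fewer cells of a type and less RNA per cell cannot be told apart.

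Among WT tumors the values can be set beside site, but sites and mice cannot be told apart. Within mouse N42, L shoulder was the highest of the 4 tumors in all 10 genes. L limb was the lowest in all 10. *B2m*, for example, was 1228 CPM in L shoulder, 709 in R pelvis, 631 in R femur and 340 in L limb. The fold between highest and lowest tumor of this 1 mouse ran from 1.35 (*Psmb10*) to 4.57 (*Nlrc5*), and was 3.97 for *H2-K1* and 3.61 for *B2m*. In mouse N43, pelvis was above spine in *H2-K1* (289 against 131 CPM), *H2-D1* (658 against 364 CPM), *B2m* (482 against 333 CPM) and *Nlrc5* (76.7 against 18.1 CPM). It was also above in *Psmb8* (23.9 against 18.6 CPM), *Psmb9* (8.12 against 5.17 CPM) and *Psmb10* (8.72 against 5.93 CPM). *Tap1* (28.3 against 28.5 CPM) and *Tap2* (28.9 against 28.7 CPM) were near equal, and *Tapbp* was lower in pelvis (122 against 144 CPM). The single tumors N215 R hind limb and N25 lung had *B2m* at 192 and 275 CPM. N25 lung carried lung genes, and its *Psmb9* (10.7 CPM) and *Psmb10* (15.6 CPM) were the highest in WT.

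*Nlrc5* was set against each of the other 9 genes over the 12 mice, with counts summed per mouse and log2 CPM. *Tap1* was the 1 gene whose relation passed the threshold: Pearson's r = 0.86 (permutation p = 0.00057, adjusted over 9 relations 0.00513) and Spearman's rho = 0.84 (permutation p = 0.00104, adjusted 0.00936). Without Massa and Grilka, the 2 mice farthest from the median *Nlrc5*, r was 0.86, with Montana and Oregon kept. Per mouse, *Tap1* was 6.33 CPM in Grilka, 8.20 in Oregon, 8.75 in Montana and 12.05 in Massa, it was between 24.4 and 31.1 CPM in the 4 WT mice, and between 29.4 and 48.9 CPM in Ohio, Medusa, Prince and Zelda. The *Tap1* values of Grilka and Massa rest on 5 and 6 counts, and Oregon and Montana carried the high muscle gene sums. The part of depth and muscle in this relation was not tested. The KO mice fall into a low and a high set of *Nlrc5* with the WT mice between, so no r is given within KO, and WT has only 4 mice. For *H2-K1* r was 0.62 (rho 0.49) and for *H2-D1* 0.59 (rho 0.48), each with a permutation p adjusted to 0.129 for r and 0.346 for rho. For *B2m* r was 0.42 (rho 0.27, adjusted permutation p = 0.369 for r and 0.584 for rho). In the other 5 genes r ran from -0.33 (*Psmb10*) to 0.40 (*Tap2*), with adjusted permutation p of 0.369 to 0.375 for r. Without Massa and Grilka r was 0.60 for *Psmb9*, 0.58 for *Psmb8*, 0.32 for *Tap2*, 0.08 for *Psmb10* and -0.08 for *Tapbp*. It was then 0.55 for *H2-K1*, 0.47 for *B2m* and 0.43 for *H2-D1*. With single mice left out, r reached 0.71 for *Psmb9* without Massa and 0.68 for *Tap2* without Ohio (adjusted permutation p = 0.0518 and 0.0604). Several of these r thus depended on single libraries.

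**Figure D5:**
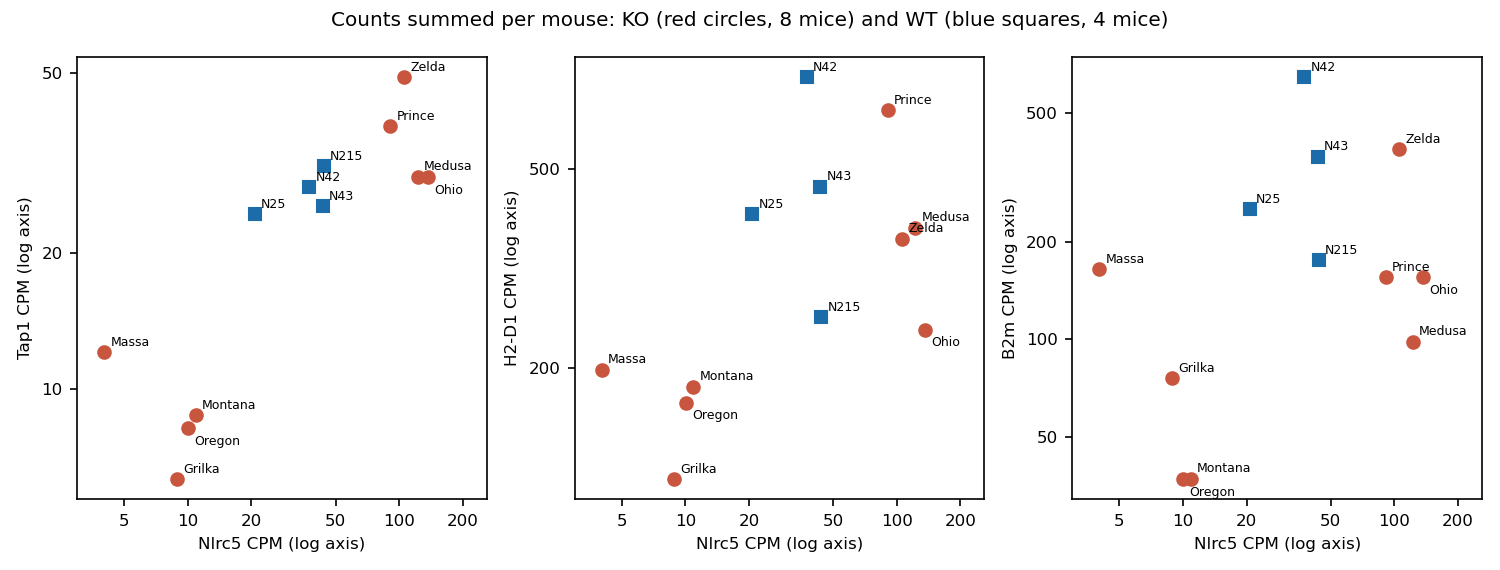
CPM of *Tap1*, *H2-D1* and *B2m* against that of *Nlrc5* for counts summed per mouse, on log axes, for 8 KO mice (red circles) and 4 WT mice (blue squares). *Tap1* rises with *Nlrc5* over the 12 mice (r = 0.86), while mouse N42 is highest in *H2-D1* and *B2m* at an *Nlrc5* of 37.5 CPM.

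The other class I heavy chains did not move as 1 group. Of 19 class Ib and related genes 16 were tested, 7 had a log2 fold change above 0 and 9 below, and edgeR called 3, all lower, while DESeq2 called 3 lower and 2 higher. The median of the 16 was -0.08. The 3 called by edgeR were *Hfe*, which regulates iron uptake (log2 fold change -1.73, SE 0.33, adjusted p = 0.0114), *Mr1*, which presents vitamin B metabolites to MAIT cells (-1.49, SE 0.28, adjusted p = 0.0108), and *Fcgrt*, the neonatal Fc receptor (-1.32, SE 0.27, adjusted p = 0.0144 in edgeR). All 3 pair with beta-2-microglobulin. *Fcgrt* ranged from 20.5 to 45.7 CPM in KO and from 32.3 to 126 CPM in WT. None of the 16 was called per mouse, and the 3 had adjusted p in edgeR of 0.409, 0.218 and 0.508 there. In that fit 4 of the 16 had an unadjusted p under 0.05, a share not counted over all genes. Several genes of the Q and T regions had higher means in KO without a call in edgeR, *H2-Q7* by 1.69 (SE 0.52, adjusted p = 0.0721), *H2-Q6* by 1.27 (SE 0.60, adjusted p = 0.211) and *H2-T24* by 2.24 (SE 0.84, adjusted p = 0.124 in edgeR), while *H2-Q4* had -0.31 (adjusted p = 0.623). The 2 that DESeq2 called higher were *H2-Q7* (adjusted p = 0.0161) and *H2-T24* (adjusted p = 0.0398). These genes share sequence with one another and with *H2-K1* and *H2-D1*.

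The remaining machinery showed little. Of 9 genes of peptide loading and trimming none was called (adjusted p 0.131 to 0.896, 1 with an unadjusted p under 0.05), with 2 above 0 and 7 below and a median of -0.24. The 3 most abundant were the aminopeptidase *Lnpep* (-0.92, SE 0.35, adjusted p = 0.131), the chaperone *Hspa5* (-0.09, adjusted p = 0.896) and calnexin, *Canx* (-0.25, adjusted p = 0.623 in edgeR). Of 7 proteasome partners none was called (adjusted p 0.441 to 0.970, none with an unadjusted p under 0.05), and the log2 fold changes were 0.17 for *Psmb5*, 0.26 for *Psmb6*, -0.03 for *Psmb7* and 0.21 for the activator subunit *Psme3*. DESeq2 called none of these 16 genes either.

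Among 26 regulators of interferon signaling and of the class I promoter, 18 had a log2 fold change above 0 and 8 below, and edgeR called 1, *Ifngr1*, the ligand-binding chain of the interferon-gamma receptor. *Ifngr1* ranged from 27.6 through a median of 41.9 to 78.7 CPM in KO and from 32.8 through 114 to 167 CPM in WT, a log2 fold change of -1.36 (SE 0.30, adjusted p = 0.0179 in edgeR), and per mouse -1.09 (adjusted p = 0.520). DESeq2 also called *Ifngr1* lower (adjusted p = 0.00154), and beside it *Ifngr2*, the other chain of the receptor, lower (adjusted p = 0.0420) and *Rfxank*, a subunit of the RFX complex on the class I promoter, higher (adjusted p = 0.00994). In edgeR *Ifngr2* had -0.73 (SE 0.24, adjusted p = 0.0865) and *Rfxank* 1.02 (SE 0.35, adjusted p = 0.101), and both were named after their values were seen. *Irf1*, which binds the interferon-type site, had 0.34 (SE 0.29, adjusted p = 0.513 in edgeR). *Ciita*, the class II counterpart of *Nlrc5*, ranged from 0 to 89.6 CPM in KO, the highest in Zelda, and from 0.404 to 40.6 CPM in WT, the highest in N25 lung (log2 fold change 1.18, SE 1.05, adjusted p = 0.536 in edgeR). The most abundant, *Jak1*, *Jak2* and *Nfkb1*, had log2 fold changes of -0.02, -0.20 and 0.22 (adjusted p 0.535 to 0.971). *Ifng*, the gene of interferon-gamma itself, was looked up but is not among the genes of the deposited counts, so it could not be tested.

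Of the 11 lists of markers of other cells, 1 held genes called by edgeR, that of macrophages and dendritic cells, and 5 held genes called by DESeq2. Of 22 macrophage and dendritic cell genes 19 were tested. Their median log2 fold change was -1.68, with 7 above 0 and 12 below. Of the list, edgeR called 10, all lower in KO, and DESeq2 12, all lower. The class II genes *H2-Eb1* (1.78), *H2-Ab1* (0.65) and *H2-Aa* (0.55) were among those above 0 and were not called. *Csf1r*, the receptor for the macrophage growth factor, was 68.5 ± 37.2 CPM in KO and 282 ± 158 CPM in WT (SD, n = 8 each, log2 fold change -2.03, adjusted p = 0.0164 in edgeR). The mannose receptor *Mrc1* fell by 2.33 (adjusted p = 0.00530), and the complement component *C1qa* fell by 2.30 (adjusted p = 0.00476). The others called were *Cd68*, *Adgre1*, *Cd14*, *Fcgr1*, *C1qb*, *C1qc* and *Itgam*, and per mouse none was called by edgeR. In the fit per mouse 11 of the 19 had an unadjusted p under 0.05, a share not counted over all genes. The abundant *Lyz2* (-0.99, adjusted p = 0.414) and *Cd74* (0.36, adjusted p = 0.770) were not called in edgeR. The leukocyte marker *Ptprc* had a median of 23.9 CPM in KO and 88.3 CPM in WT, and 5 KO tumors were below all WT tumors, but the 845 CPM of Zelda raised the KO mean to 132 CPM against 99.5 CPM in WT. Its log2 fold change was 0.41 in edgeR (adjusted p = 0.807), -0.89 in limma-voom (adjusted p = 0.803) and -1.52 in DESeq2, which called it lower (adjusted p = 0.00869). The summed list ranged from 495 through a median of 662 to 3199 CPM in KO and from 1001 through 2762 to 2986 CPM in WT, and at most 3 of its 22 genes were at 0 in any tumor. Zelda and Massa, the KO tumors with the highest sums, were also those with the most *B2m* in KO. The sum of Zelda includes its 845 CPM of *Ptprc*. *Csf1r*, *Mrc1* and *C1qa* were at most 125, 129 and 61.6 CPM in KO, against WT medians of 270, 343 and 182 CPM. *Lyz2* reached 1909 CPM in KO, above the 1377 CPM of the highest WT tumor. The sums thus do not stand for the called macrophage genes. The part of macrophages in the lower *B2m* was not tested.

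T and NK cell genes were near the floor. Of 16 such genes 2 were tested and none called, and the summed list ran from 0 through a median of 9.23 to 160 CPM in KO and from 4.44 through 10.8 to 46.0 CPM in WT. *Cd8a*, the coreceptor that binds class I, was too low to be tested, with 0 to 10.9 CPM in KO and 0 to 1.55 CPM in WT. In Grilka all 16 genes were at 0, where 3 counts are 4.03 CPM. edgeR called no gene in the lists of B cell, endothelial, neutrophil, erythroid, muscle, salivary gland, lung, liver or osteoblast genes, in which the adjusted p in edgeR was 0.0732 or above and 5 genes, 4 of them osteoblast genes, had an unadjusted p under 0.05. DESeq2 called 8 genes of these lists, named here after their values were seen. They were the salivary gland genes *Prol1* and *Muc19*, higher, and *Ager* of the lung list and *Hbb-bt* of the erythroid list, lower, of which edgeR tested only *Ager*. For *Ager* the direction was not the same: the log2 fold change was -1.94 in DESeq2 and 0.53 in edgeR (adjusted p = 0.869). The other 4 were the osteoblast genes *Alpl*, *Bglap*, *Bglap2* and *Spp1*, lower by log2 fold changes of -2.14 to -3.77 with adjusted p of 0.00992 to 0.0369 in DESeq2. In edgeR 9 of the 10 osteoblast genes had a log2 fold change below 0, with a median of -1.36. The part of osteoblast content in the values of the members was not tested. The osteoblast genes, the lineage in which Cre acts, were present in every tumor, with summed CPM from 715 (Prince) to 60127 (Grilka) in KO and from 2896 (N25 lung) to 83963 (N42 L shoulder) in WT.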

How the data were processed

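RNA was depleted of ribosomal RNA and sequenced from 1 end in 50 cycles. Per the labels and the paper's methods, the authors aligned the reads to mm10 and Ensembl splice junctions with Novoalign 2.08.01, keeping the best of several alignments per read, counted them per gene with USeq and used DESeq2 1.26.0. The deposited values are these raw counts. Whether reads were counted by strand is not given in the sources used here. Genes with a total under 6 are not in the table. The group of each tumor came from its label and its mouse from the animal code. Batches are not labeled.

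The members and gene lists were chosen with earlier results of these data known. Counts were tested with edgeR 4.0.16 in R 4.3.3 (quasi-likelihood test with glmQLFit and glmQLFTest, TMM, filterByExpr at min.count 10 and min.total.count 15, two-sided, Benjamini-Hochberg, threshold 0.05), which left out 9641 genes. Alternatives were DESeq2 1.42.0 (no adjusted p for 4976 genes), limma 3.58.1 with voom and duplicateCorrelation (statmod 1.5.0), counts summed per mouse, 1 tumor per mouse, DESeq2 size factors, no filter and the removal of tumors. Ratios of counts used 0.5 added to each count, log2 CPM a prior count of 2, and correlations 100000 permutations. The edgeR, ratio and correlation tests were tested on simulated data. Floors of 3 counts cover counting error only. Each SE given with edgeR is the absolute log2 fold change divided by the square root of the F statistic, since the test itself returns none. Positions and exon lengths came from GENCODE vM21 (99.7% of identifiers found), upstream sequence from RefSeq. All members are named, and of the other lists the genes past the threshold, the 3 most abundant and a few fixed genes. For cell lists without a call in edgeR, sums and the calls of DESeq2 are given. A result that this rule would name is not reported here. Ratios, correlations and sequences were handled in Python 3.11.15 with scipy 1.17.1, pandas 2.3.3 and numpy 2.4.6, and plots were drawn with matplotlib 3.10.9.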

Additional observations from a re-analysis of the deposited data

Results flagged for a closer look

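Of 28 groups of values examined, 3 held a tumor that stood apart from the rest by Dixon's criterion, which chance meets in about 1 in 20 groups. *B2m* in KO was highest in Zelda at 394 CPM, with the next tumor, Massa, at 183 CPM. *Psmb10* in KO was highest in Massa at 69.1 CPM, with the next, Medusa, at 20.7 CPM, and Massa had the fewest counts of all 16 tumors. The log2 ratio of *Psmb10* to *Psmb7* in WT was highest in N25 lung at -1.24, with the next tumor at -2.37.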

How the results depend on the processing

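Over all genes, 618 passed the threshold (287 higher and 331 lower), and the number was 2517 with DESeq2, 17 with limma-voom, 10 per mouse, 15 with 1 tumor per mouse, 8 without mouse N42, 372 without Montana and Oregon (chosen after seeing the data), and 252 to 1348 when single tumors were left out. Of the 10 members, 1 passed. The number was 2 with DESeq2, 0 with limma-voom, per mouse, with 1 tumor per mouse, with DESeq2 size factors in edgeR, without the filter, without N42, without Massa and Grilka, with Medusa and Ohio as the only KO tumors, and without Montana and Oregon, and 0 to 1 with single tumors left out. *B2m* kept its direction in all 26 alternatives (log2 fold change -2.24 to -1.08) and passed in 5, adjusted p ranging from 0.00659 to 0.660. It lost its call without any of 12 of the 16 single tumors, at most 0.103 without N42 L shoulder. *Tapbp* passed in 2. Differences near 0 changed sign. *Tap1* was 0.0026 with Medusa and Ohio as the only KO tumors. *Tap2* was 0.034 per mouse, 0.10 with 1 tumor per mouse, 0.019 without N42, 0.011 without Massa and Grilka, 0.17 with Medusa and Ohio only, 0.045 without Montana and Oregon and -0.24 to 0.035 with single tumors left out. The log2 ratio of *Psmb9* to *Psmb6*, KO minus WT, was -0.18 per mouse, -0.30 without N42 and -0.21 to 0.34 with single tumors left out. For *Nlrc5* and *Psmb10* r was -0.48 to 0.25 with single mice left out, positive without Massa, and for *Nlrc5* and *Tap1* it was 0.84 to 0.89. The number of relations of *Nlrc5* past the threshold was 1 to 2, the second being *H2-K1* without Medusa. Leaving out tumors also removes replicates, and for the other changes the cause was not tested. No paired analysis was possible because no mouse had tumors of both genotypes.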
